A study of Mus musculus with 6 samples.

Results

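The results concern 10 genes for transcription factors that set the fate of CD8 T cells: Tcf7, Lef1, Tox, Tox2, Id2, Id3, Eomes, Tbx21, Bach2 and Nr4a2. They were chosen by name from the 32286 genes of the deposited matrices, and all 10 were counted in every library. Droplet sequencing counted them, with surface antibody tags, in immune cells taken from mouse livers on day 30 after infection with an adeno-associated virus (AAV). AAV-sgBaat carried a guide RNA against Baat, which conjugates bile acids with taurine or glycine in hepatocytes, AAV-sgSCR carried a control guide RNA, and the mock group was mock infected. Each group is 1 mRNA library from a pool of 3 tumor samples, so values differ between 3 pools and no difference could be tested against replicates. The strain, sex and age of the mice, how the tumors arose and whether cells were transferred are not given in the sources used here. The labels call the mock liver native in its title and tumor bearing in the design text. CD3+ T cells and the remaining CD45hi immune cells came from separate sorts and shared a run.

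TCF-1 (the product of Tcf7) and LEF-1 are related DNA-binding factors that keep naive, memory and progenitor T cells in a self-renewing state, and both are also needed earlier, when T cells form in the thymus. In tumors and chronic infection, CD8 T cells that meet antigen again and again switch on TOX, which holds them in an exhausted state with high PD-1 (Pdcd1), and a small TCF-1-positive progenitor fraction of them renews the rest. T-bet (Tbx21) and Eomes are T-box factors of effector and memory cells and of natural killer (NK) cells. ID2 and ID3 bind E proteins and block them, ID2 in effector cells and innate lymphoid cells, ID3 in memory and progenitor cells. BACH2 represses effector genes, TOX2 is a close relative of TOX, and NR4A2 is an orphan nuclear receptor that T cell receptor signals induce.

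The cells were split by 2 antibody tags, whose barcode oligos are shown because every comparison of CD8 cells below rests on them. CD90 is the surface protein Thy-1, and mice carry either its CD90.1 or its CD90.2 form, so the tags tell cells of different Thy1 alleles apart. Each oligo has 15 bases, given 5′ to 3′ as listed with the deposited data.
CD90.1 tag: agtatgggatgcaat
CD90.2 tag: ccgatcagccgttta
The labels do not say which cells, if any, were given to the mice with the CD90.1 allele.

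The libraries held 9386, 8073 and 6431 barcodes in AAV-sgBaat, AAV-sgSCR and mock, with 48359443, 62570529 and 32005400 gene UMIs (unique molecular identifiers, 1 per captured RNA molecule). Barcodes with at least 500 genes, at least 1000 gene UMIs and at most 10% mitochondrial UMIs numbered 7094, 7332 and 6068, with median depths of 3811.5, 5911 and 4164 UMIs. Between 10 and 16 of these barcodes were shared by any pair of libraries. T cells, with at least 2 UMIs of the CD3 genes, numbered 2135, 2534 and 1849 after 2274, 1300 and 301 barcodes that also carried RNA of another lineage were left out. CD8 T cells numbered 549, 1501 and 508. They were CD90.1-dominant, with at least 100 tag UMIs and more CD90.1 than CD90.2, in 210 cells of AAV-sgBaat (38.3%, 95% interval 34.2% to 42.5%), 907 of AAV-sgSCR (60.4%, 57.9% to 62.9%) and 12 of mock (2.36%, 1.23% to 4.09%). The CD90.2-dominant ones numbered 321, 576 and 484, and the 18, 18 and 12 others had few tags. Levels are the summed UMIs of a gene as counts-per-million (CPM) of all gene UMIs of the same cells. All intervals are exact 95% intervals (Poisson for levels, binomial for shares and ratios), and they cover counting error only. Within such a sum, fewer cells of a kind and less RNA per cell cannot be told apart.

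**Figure D1:**
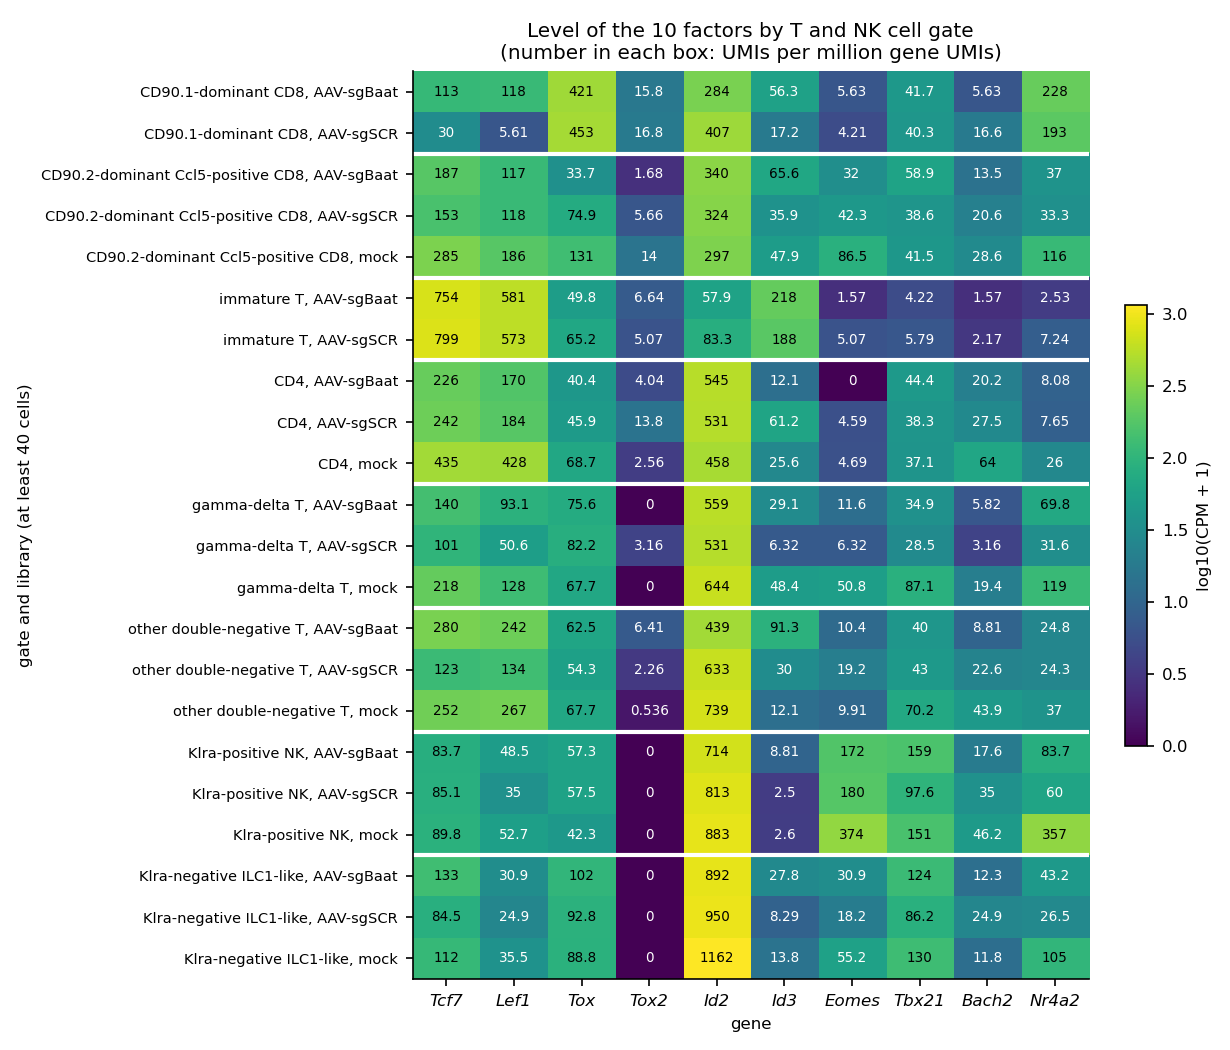
Level of each of the 10 genes in CPM (number in each box; the colour scale is log10, and brighter is higher) in the T and NK cell gates with at least 40 cells, by library. Tox is high in CD90.1-dominant CD8 cells (421 and 453 CPM), Nr4a2 in those and in mock NK cells (357 CPM), Eomes in Klra-positive NK cells, and Tcf7 and Lef1 in immature T cells.

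CD90.1-dominant CD8 cells carried far more RNA of Tox and Nr4a2 than CD90.2-dominant CD8 cells of the same library, and far less of Eomes, in both AAV libraries. Tcf7 and Lef1 were the lower in CD90.1-dominant cells of AAV-sgSCR by a wide margin and of AAV-sgBaat by a small one, which grew to over 2-fold when cells without Ccl5 and cells with Dntt or Arpp21 were left out. Id2 and Tbx21 differed by at most 1.35-fold in both libraries. A gene was compared where both sums held at least 20 UMIs together, and a ratio counts as a difference from 2-fold on. Of the 9 genes compared in AAV-sgBaat, 2 were higher in CD90.1-dominant cells and 2 lower, where 10.1% and 4.47% of all 7531 genes compared were. Of all 10 in AAV-sgSCR, 3 were higher and 4 lower, where 11.8% and 3.94% of 10270 genes were. The median log2 ratio of the members was -0.23 in AAV-sgBaat and -0.09 in AAV-sgSCR, against 0.20 and 0.21 over all genes.

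Tox (ENSMUSG00000041272, mm10 chromosome 4, 6686353 to 6991557) stood at 421 CPM in CD90.1-dominant and 34.2 CPM in CD90.2-dominant cells of AAV-sgBaat. In AAV-sgSCR it stood at 453 and 68.1 CPM. These are 12.3-fold (log2 ratio 3.62, 3.20 to 4.08) and 6.66-fold (2.73, 2.54 to 2.94), so the interval of the AAV-sgBaat ratio lies above that of AAV-sgSCR. Nr4a2 (ENSMUSG00000026826, chromosome 2, 57106830 to 57124003) stood at 228 and 32.8 CPM in CD90.1- and CD90.2-dominant cells of AAV-sgBaat, and at 193 and 29.8 CPM in those of AAV-sgSCR. The folds, 6.93 (2.79, 2.34 to 3.27) and 6.49 (2.70, 2.40 to 3.01), have overlapping intervals. Tox2 (ENSMUSG00000074607, chromosome 2, 163203058 to 163324172) was scarce throughout, with 84 UMIs in CD90.1-dominant and 19 in CD90.2-dominant cells of AAV-sgSCR, which is 2.98-fold per UMI sequenced (1.57, 0.84 to 2.37). In AAV-sgBaat the counts were 14 and 2, too few for the comparison.

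Eomes (ENSMUSG00000032446, chromosome 9, 118478186 to 118486132) was nearly lacking from CD90.1-dominant cells, with 5 UMIs in AAV-sgBaat cells and 21 in AAV-sgSCR cells. These are 5.63 and 4.21 CPM, against 43.5 and 40.5 CPM in CD90.2-dominant cells, or 7.73-fold (log2 ratio -2.95, -4.62 to -1.65) and 9.62-fold (-3.27, -4.00 to -2.60) lower. Tbx21 (ENSMUSG00000001444, chromosome 11, 97098007 to 97115331) did not share this difference, with 41.7 and 40.3 CPM in CD90.1-dominant and 48.9 and 34.5 CPM in CD90.2-dominant cells of AAV-sgBaat and AAV-sgSCR. The log2 ratios of Tbx21 were -0.23 (-0.84 to 0.36) and 0.22 (-0.11 to 0.56), and both intervals include 0. Id2 (ENSMUSG00000020644, chromosome 12, 25093799 to 25096092) was present at 284 and 407 CPM in CD90.1-dominant and 297 and 301 CPM in CD90.2-dominant cells of the 2 libraries.

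Tcf7 (ENSMUSG00000000782, chromosome 11, 52246527 to 52283383) was 5.72-fold lower in CD90.1-dominant cells of AAV-sgSCR (30.0 against 172 CPM, log2 ratio -2.52, -2.79 to -2.26). In AAV-sgBaat it was 1.84-fold lower (113 against 208 CPM, -0.88, -1.22 to -0.55). Lef1 (ENSMUSG00000027985, chromosome 3, 131110297 to 131224357) went much further in AAV-sgSCR, at 5.61 against 139 CPM, or 24.7-fold lower (-4.63, -5.23 to -4.08). In AAV-sgBaat it stood at 118 against 150 CPM, 1.27-fold lower. Id3 (ENSMUSG00000007872, chromosome 4, 136143822 to 136145392) was 2.11-fold lower in CD90.1-dominant cells of AAV-sgSCR (17.2 against 36.3 CPM) and 1.05-fold lower in those of AAV-sgBaat (56.3 against 58.9 CPM). Bach2 (ENSMUSG00000040270, chromosome 4, 32238413 to 32586109) was 2.85-fold lower in AAV-sgBaat on 5 UMIs against 24, and 1.32-fold lower in AAV-sgSCR. Over all cells, the ratios of Tcf7, Lef1 and Id3 between the CD90 classes had intervals that do not meet between the AAV libraries.

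The AAV-sgBaat ratios of Tcf7 and Lef1 were larger in size when the cells were restricted. A subset chosen after the data were seen kept cells with Ccl5, a chemokine gene of antigen-experienced CD8 cells, and without Dntt and Arpp21, genes of immature lymphocytes. In it Tcf7 in AAV-sgBaat stood at 65.1 CPM in CD90.1-dominant against 187 CPM in CD90.2-dominant cells (log2 ratio -1.52, -2.00 to -1.07), and Lef1 at 26.6 against 117 CPM (-2.14, -2.90 to -1.46). In AAV-sgSCR the log2 ratios were -2.78 (-3.11 to -2.46) for Tcf7 and -4.52 (-5.22 to -3.90) for Lef1, so the intervals still do not meet between the libraries. Id3 stood at 38.5 against 62.7 CPM in AAV-sgBaat (-0.70, -1.38 to -0.06) and 13.1 against 36.4 CPM in AAV-sgSCR (-1.47, -1.96 to -0.999), and its intervals overlap.

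**Figure D2:**
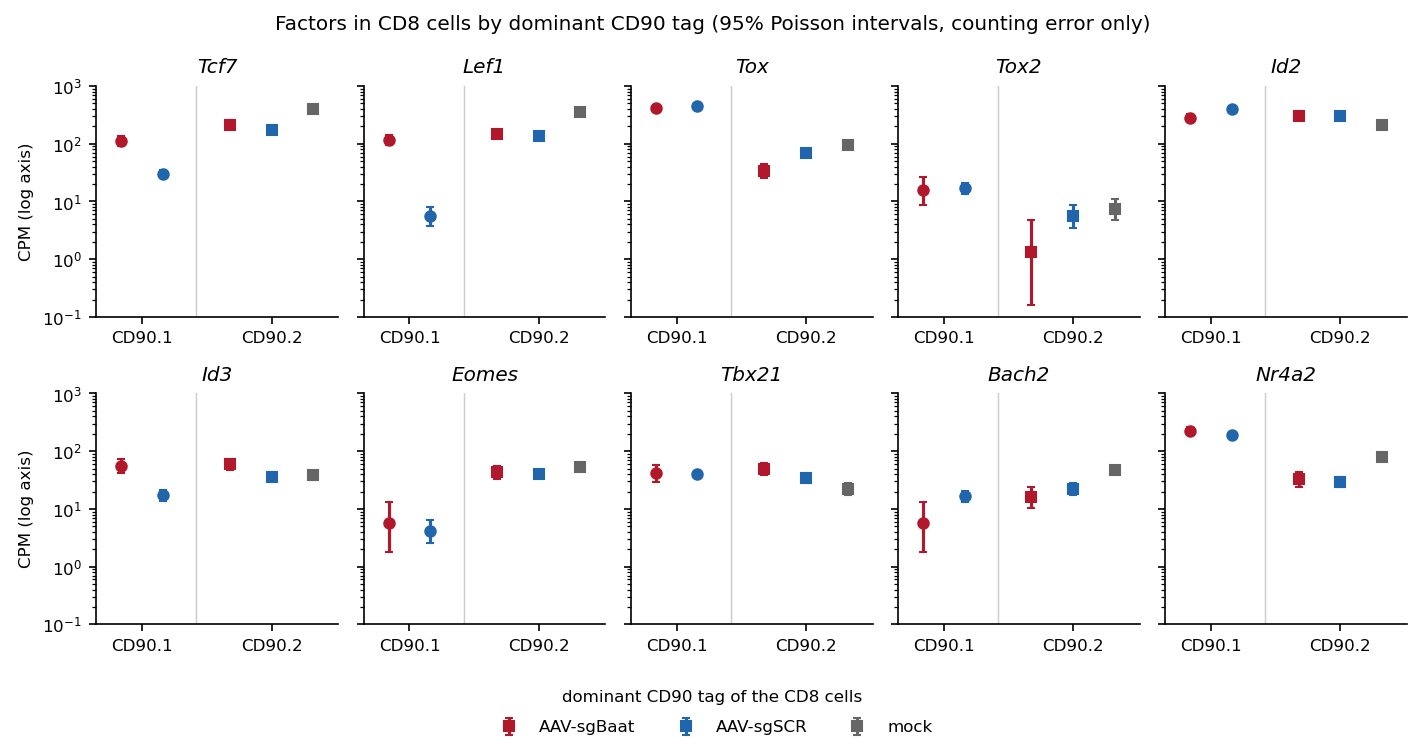
CPM (log axis) of each gene in CD90.1-dominant (circles) and CD90.2-dominant (squares) CD8 cells of the AAV-sgBaat, AAV-sgSCR and mock libraries, with exact 95% Poisson intervals of the counts. Tox and Nr4a2 circles lie above the squares and Eomes circles below them in both AAV libraries, and the AAV-sgBaat circles of Tcf7, Lef1 and Id3 lie above those of AAV-sgSCR.

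The 12 CD90.1-dominant CD8 cells of mock are too few for a comparison. Their sums gave 866 CPM of Tox, 962 CPM of Id2, 673 CPM of Nr4a2, 250 CPM of Eomes and 77.0 CPM of Tbx21, with no UMI of Tcf7 or Id3 and 1 of Lef1.

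The genes of 4 other lists were compared in the same way. Of all genes compared, 10.1% were at least 2-fold higher and 4.47% lower in AAV-sgBaat, and 11.8% and 3.94% in AAV-sgSCR. Of 10 inhibitory receptor genes, 9 were at least 2-fold higher in CD90.1-dominant cells of AAV-sgSCR and none lower. Among them Cd200 was 13.5-fold, Lag3 10.1-fold and Pdcd1 9.54-fold higher. In AAV-sgBaat 6 of the 7 compared were higher and none lower, led by Lag3 (233 against 12.1 CPM, 19.3-fold) and Pdcd1 (188 against 10.0 CPM, 18.7-fold). Of 9 naive and progenitor genes compared, none was higher in either library, and 6 were lower in AAV-sgBaat and 4 in AAV-sgSCR. Il7r, the interleukin-7 receptor chain, was 24.0-fold lower in AAV-sgBaat and 3.40-fold lower in AAV-sgSCR, and S1pr1, which lets T cells leave tissue, 16.5-fold and 19.2-fold lower. Of the other factors of T cell fate, 5 were higher and 4 lower of 21 in AAV-sgBaat, and 7 higher and 2 lower of 24 in AAV-sgSCR. Rbpj, which carries Notch signals, was 4.25-fold and 2.82-fold higher and Irf8 3.23-fold and 3.48-fold higher, while Klf2, which drives S1pr1, was 5.25-fold and 5.57-fold lower. Among 9 effector genes 3 were higher and 1 lower in AAV-sgBaat, and 1 higher and 1 lower in AAV-sgSCR. The 1 of 9 higher in AAV-sgSCR lies near the 11.8% of all genes. Gzma, for granzyme A, was 9.56-fold and 4.31-fold higher, and Gzmk, for granzyme K, 2.03-fold and 2.55-fold lower.

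Between the AAV groups, CD90.1-dominant CD8 cells of AAV-sgBaat carried more Tcf7, Lef1 and Id3 and less Bach2 than those of AAV-sgSCR. Tox, Tbx21 and Nr4a2 were nearly the same, and Tox2 was too scarce to say. The question behind the comparison is whether T cells in these livers differ when bile acid conjugation in hepatocytes is targeted. At 2-fold, 3 of the 10 genes were higher and 1 lower, where 2.88% of 9781 genes were higher and 7.51% lower. The median log2 ratio was 0.14 for the members and -0.02 for all genes.

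Lef1 had 105 UMIs in the 210 cells of AAV-sgBaat and 28 in the 907 cells of AAV-sgSCR. This is 118 against 5.61 CPM, a log2 ratio of 4.40 (3.79 to 5.06) or 21.1-fold. Tcf7 had 100 and 150 UMIs, or 113 CPM (91.7 to 137) in AAV-sgBaat against 30.0 CPM (25.4 to 35.3) in AAV-sgSCR, 3.75-fold higher (1.91, 1.53 to 2.28). Both ratios lie among the highest of all genes compared, since 99.98% of genes had a ratio at or below that of Lef1 and 99.7% at or below that of Tcf7. Id3 stood at 56.3 against 17.2 CPM, 3.27-fold higher (1.71, 1.18 to 2.23). Bach2 stood at 5.63 against 16.6 CPM, on 5 and 83 UMIs (-1.56, -3.22 to -0.28). Tox and Nr4a2 of the exhausted state differed little. Tox had 421 CPM in AAV-sgBaat against 453 CPM in AAV-sgSCR (-0.11, -0.27 to 0.05), and Nr4a2 228 against 193 CPM (0.24, 0.01 to 0.46). Tox2 had 15.8 against 16.8 CPM, on 14 and 84 UMIs (-0.09, -1.02 to 0.73), so its interval takes in a 2-fold decrease. Tbx21 had 41.7 against 40.3 CPM (0.05, -0.50 to 0.56) and Id2 284 against 407 CPM (-0.52, -0.72 to -0.33).

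The excess of Tcf7, Lef1 and Id3 sat in few cells. In AAV-sgBaat, Tcf7 was detected in 37 cells, Lef1 in 28 and Id3 in 21, and the 10 cells with the most UMIs of each gene held 67.0%, 73.3% and 78.0% of its UMIs. A single cell held 29 of the 105 Lef1 UMIs. In AAV-sgSCR the 10 highest cells held 24.7% of Tcf7, 67.9% of Lef1 and 37.2% of Id3 UMIs. For Tox, with 374 and 2264 UMIs, the 10 highest cells held 16.0% in AAV-sgBaat and 4.73% in AAV-sgSCR. Such a share also depends on the number of cells (210 and 907) and on the UMIs of the gene. It therefore does not compare the spread between libraries or genes.

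RNA of immature lymphocytes went with this excess. Immature T cells, with at least 2 UMIs of Dntt, Arpp21, Rag1 or Ptcra, numbered 826 in AAV-sgBaat, 92 in AAV-sgSCR and 4 in mock, with a median CD90.1 tag count of 3024.5 and 3790.5 in the AAV libraries. Their levels were 754 and 799 CPM of Tcf7, 581 and 573 CPM of Lef1 and 218 and 188 CPM of Id3 in AAV-sgBaat and AAV-sgSCR. Tox in them was 49.8 and 65.2 CPM, and Nr4a2 2.53 and 7.24 CPM. Cells of this gate were left out of the CD8 gate, but 27 of the 210 CD90.1-dominant cells of AAV-sgBaat held a UMI of Dntt or Arpp21, against 9 of the 907 of AAV-sgSCR. The list of 4 such genes (Dntt, Arpp21, Rag1, Rag2) summed to 32.7 CPM in CD90.1-dominant cells of AAV-sgBaat, with Rag1 at 0, and to 2.20 CPM in those of AAV-sgSCR, with Rag2 at 0. In the 27 cells Tcf7 was at 428 CPM, Lef1 at 713, Id3 at 160 and Tox at 152 CPM. In the other 183 cells Tcf7 was at 67.0 CPM, Lef1 at 32.2 and Id3 at 41.3 CPM.

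Cells without Ccl5, a chemokine gene that most antigen-experienced CD8 cells transcribe, had other levels in AAV-sgBaat than in AAV-sgSCR. The 17 of AAV-sgBaat had 533 CPM of Tcf7, 975 of Lef1, 117 of Id3 and 156 of Tox. The 119 of AAV-sgSCR had 86.6 CPM of Tcf7, 10.2 of Lef1, 49.2 of Id3 and 416 of Tox, so Tox was high and Lef1 low in them. The 17 overlap with the 27 of AAV-sgBaat that held Dntt or Arpp21, since leaving out both sets took 210 cells to 177. Their levels are thus in part those of the 27. In AAV-sgSCR leaving out the 119 and the 9 with Dntt or Arpp21 took 907 cells to 780. When only cells with Ccl5 and without Dntt and Arpp21 were kept, a choice made after the data were seen, 177 cells of AAV-sgBaat and 780 of AAV-sgSCR remained. Tcf7 was then at 65.1 against 22.3 CPM, Lef1 at 26.6 against 5.05, Id3 at 38.5 against 13.1 and Tox at 465 against 460 CPM. The same 3 genes stayed more than 2-fold higher and Bach2 more than 2-fold lower, with Lef1 at a much smaller ratio. The Bach2 ratio rests on at most the 5 UMIs that all 210 cells of AAV-sgBaat held. The share of all genes past 2-fold was not counted in this subset.

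**Figure D3:**
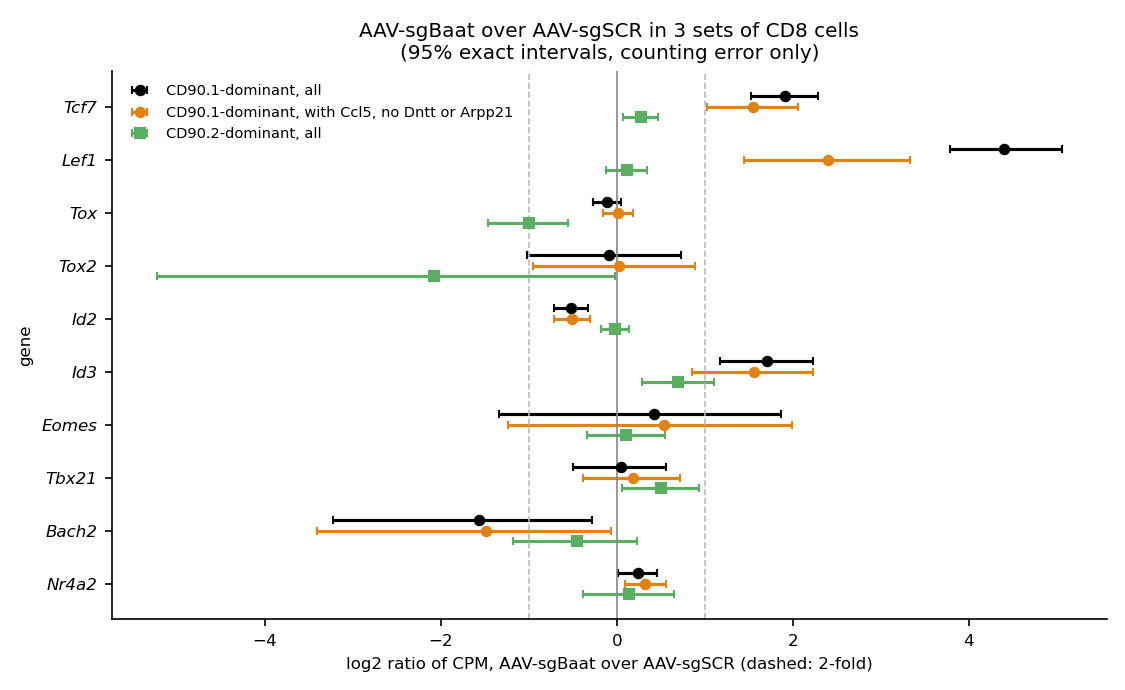
Log2 ratio of CPM, AAV-sgBaat over AAV-sgSCR, for each gene in all CD90.1-dominant CD8 cells, in those with Ccl5 and without Dntt and Arpp21, and in all CD90.2-dominant CD8 cells, with exact 95% intervals and dashed lines at 2-fold. In CD90.1-dominant cells Lef1 stands at 4.40, Tcf7 at 1.91 and Id3 at 1.71, Tox lies near 0, and in CD90.2-dominant cells Tox is 1.99-fold lower.

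The background of T cell RNA in cells that should lack it also differed between the libraries, and its part in these ratios was not tested. Neutrophils, which should lack T cell factors, were taken as barcodes with at least 50 UMIs of S100a8 and S100a9 (437 in AAV-sgBaat and 802 in AAV-sgSCR, median depths 4131 and 4974.5 UMIs). They gave 17.8 against 3.85 CPM of Tcf7 and 16.4 against 1.54 CPM of Lef1. Tox in them was 2.35 against 1.93 CPM, and Id3 6.10 against 6.94 CPM. Some of these neutrophil barcodes also carried RNA of immature lymphocytes. A UMI of Dntt or Arpp21 was held by 27 of the 437 of AAV-sgBaat, against 8 of the 802 of AAV-sgSCR. The immature lymphocyte list came to 19.7 against 2.70 CPM in the neutrophils. Whether such barcodes were doublets, and their part in the Tcf7 and Lef1 background, was not tested. Shares of cells with a UMI were compared after each cell was thinned to 2000 gene UMIs, which left 182 of the 210 CD90.1-dominant cells of AAV-sgBaat (median depth 3694) and 885 of the 907 of AAV-sgSCR (median depth 4816). Tcf7 was then detected in 12.6% and 4.97% of them, against 3.29% and 1.33% of the neutrophils. Lef1 was detected in 8.79% and 1.24%, against 2.10% and 0.399% of neutrophils, and Tox in 48.9% and 57.7% of CD90.1-dominant cells, against 0.299% and 0.266%. Before thinning the shares in CD90.1-dominant cells were 17.6% and 10.4% for Tcf7, 13.3% and 2.09% for Lef1 and 70.0% and 83.8% for Tox. Id2 was also found in the neutrophils, at 76.9 and 170 CPM, while Eomes, Tox2, Tbx21, Bach2 and Nr4a2 stayed at 2.89 CPM or less there.

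RNA of other cells was present in the CD90.1-dominant sums too. The macrophage list (C1qa, C1qb, C1qc, Apoe; all 4 found) came to 136 CPM in AAV-sgBaat and 71.5 CPM in AAV-sgSCR, mostly Apoe. The neutrophil genes S100a8 and S100a9 came to 314 and 387 CPM. The B cell list came to 204 and 140 CPM, mostly Ighm, with Ms4a1 at 0 in AAV-sgSCR. The hepatocyte list came to 5.63 and 5.81 CPM, with Ttr at 0 in AAV-sgBaat. Haemoglobin RNA came to 295 and 2625 UMIs, of which a single barcode held 288 and 2511. The part of these RNAs in the members' ratios was not tested.

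Among the other genes of the pathway in CD90.1-dominant cells, some fate factors were higher in AAV-sgBaat, as Tcf7 and Lef1 were, and naive and progenitor genes were not. Of 9 naive and progenitor genes none was higher in AAV-sgBaat and 4 were lower, where 2.88% of all genes compared were higher and 7.51% lower. Ccr7, the receptor that guides naive and progenitor T cells into lymphoid tissue, stood at 4.51 against 46.9 CPM (10.4-fold lower), Il7r at 10.1 against 91.9 CPM (9.07-fold lower) and Dapl1 5.74-fold lower. Of 10 inhibitory receptor genes none was higher and 3 were lower, namely Cd200 (8.30-fold), Ctla4 (3.99-fold) and Tigit (3.45-fold). Of 23 other factors 4 were higher, among them Satb1, a chromatin organiser of developing T cells (54.1 against 11.0 CPM), Myb (2.54-fold) and Ikzf2 (2.15-fold). Irf4, on 2 UMIs in AAV-sgBaat (3.91-fold, log2 ratio -1.97, -5.06 to -0.03), and Maf (2.46-fold) were the 2 lower ones. Of 9 effector genes only Gzmb, for granzyme B, passed 2-fold, at 377 against 186 CPM. Satb1 and Myb rest on 48 and 14 UMIs in AAV-sgBaat. The ratios of these lists are over all CD90.1-dominant cells and were not computed in those with Ccl5 and without Dntt and Arpp21.

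In CD90.2-dominant CD8 cells the AAV groups differed little in these factors, except for Tox and Tox2. Tox stood at 34.2 CPM in AAV-sgBaat against 68.1 CPM in AAV-sgSCR, on 51 and 229 UMIs, 1.99-fold lower and so just short of the threshold (log2 interval -1.46 to -0.55). Tox2 had 2 UMIs in AAV-sgBaat against 19 in AAV-sgSCR (1.34 against 5.65 CPM, -2.08, -5.22 to -0.03) and was the only member past 2-fold. So 0 of 10 were higher and 1 lower, where 1.04% of 8975 genes were higher and 3.13% lower. Id3 (58.9 against 36.3 CPM, 0.70, 0.29 to 1.11), Tbx21 (48.9 against 34.5 CPM, 0.50, 0.06 to 0.94) and Tcf7 (208 against 172 CPM, 0.27, 0.07 to 0.47) were higher in AAV-sgBaat by less than 2-fold. Lef1 stood at 150 against 139 CPM, Id2 at 297 against 301, Eomes at 43.5 against 40.5, Bach2 at 16.1 against 22.0 and Nr4a2 at 32.8 against 29.8 CPM. Of 8 inhibitory receptor genes 3 were lower as well, namely Ctla4 (3.96-fold), Pdcd1 (10.0 against 30.1 CPM) and Lag3 (2.10-fold). No gene of the naive and progenitor list (10 compared), of the effector list (10) or of the other factors (22) passed 2-fold.

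Against mock, CD90.2-dominant cells of both AAV groups had less Lef1, Bach2 and Nr4a2 RNA. Both comparisons use the same mock library. Lef1 stood at 150 CPM in AAV-sgBaat and 139 CPM in AAV-sgSCR, against 359 CPM in mock (2.39-fold and 2.59-fold lower). Tcf7 stood at 208 and 172 CPM against 402 CPM (1.94-fold and 2.34-fold lower). Bach2 stood at 16.1 and 22.0 CPM against 46.9 CPM, and Nr4a2 at 32.8 and 29.8 CPM against 78.5 CPM. Tbx21 was the reverse, at 48.9 and 34.5 CPM against 22.2 CPM (2.20-fold and 1.55-fold higher). Tox stood at 34.2 and 68.1 CPM against 95.4 CPM, and Tox2 at 1.34 and 5.65 CPM against 7.51 CPM. In all, 1 member was higher and 5 lower in AAV-sgBaat, where 3.34% and 6.24% of 8853 genes were, and 0 were higher and 4 lower in AAV-sgSCR, where 4.27% and 3.32% of 9493 genes were. The median log2 ratios of the members were -1.11 and -0.45, against -0.06 and -0.01 over all genes.

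The CD90.2-dominant cells were of different make-up in the 3 libraries. Cells without Ccl5 were 60 of 321 in AAV-sgBaat, 55 of 576 in AAV-sgSCR and 249 of 484 in mock, and cells with it numbered 261, 521 and 235. Those without Ccl5 had 289, 331 and 537 CPM of Tcf7 in AAV-sgBaat, AAV-sgSCR and mock, and 279, 314 and 558 CPM of Lef1. They held little Id2 (128, 104 and 116 CPM). Their Tbx21 level was 9.84 CPM in AAV-sgBaat, and no UMI was counted in AAV-sgSCR (up to 10.4 CPM) or mock (up to 2.48 CPM). Their Bach2 level was 26.2, 33.7 and 68.0 CPM, and Tox2 had 0, 2 and 0 UMIs in them.

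Within the cells with Ccl5, Nr4a2, Eomes and Tox2 were at least 2-fold lower than in mock in both AAV groups, and Tox and Bach2 in AAV-sgBaat alone. The share of all genes past 2-fold was not counted in these cells, so the number of members past it has no measure beside it. Tcf7 stood at 187, 153 and 285 CPM in AAV-sgBaat, AAV-sgSCR and mock, and Lef1 at 117, 118 and 186 CPM, so both AAV groups were lower than mock by less than 2-fold, with Tcf7 in AAV-sgSCR at 1.86-fold. Tox stood at 33.7, 74.9 and 131 CPM, 3.89-fold and 1.75-fold lower than in mock, and was 2.22-fold lower in AAV-sgBaat than in AAV-sgSCR (log2 ratio -1.15, -1.68 to -0.66). Nr4a2 stood at 37.0, 33.3 and 116 CPM, with log2 ratios against mock of -1.64 (-2.15 to -1.17) and -1.80 (-2.16 to -1.44). Eomes stood at 32.0, 42.3 and 86.5 CPM, with log2 ratios of -1.44 (-1.99 to -0.91) and -1.03 (-1.39 to -0.68). Over all CD90.2-dominant cells Eomes had been only 1.21-fold and 1.31-fold lower than in mock. Bach2 stood at 13.5, 20.6 and 28.6 CPM, which is 2.13-fold lower in AAV-sgBaat and 1.39-fold lower in AAV-sgSCR (log2 ratio -0.47, -1.04 to 0.10), so its difference in AAV-sgSCR over all cells did not hold here. Tox2, on 2, 17 and 24 UMIs, had log2 ratios against mock of -3.06 (-6.18 to -1.05) and -1.31 (-2.30 to -0.35). Tbx21 stood at 58.9, 38.6 and 41.5 CPM, and was higher in AAV-sgBaat than in the other libraries by less than 2-fold. Its ratio was 1.53-fold over AAV-sgSCR (log2 ratio 0.61, 0.16 to 1.05) and 1.42-fold over mock (0.51, 0.009 to 1.003). AAV-sgSCR and mock were close in Tbx21 (log2 ratio -0.10, -0.54 to 0.34). Id2 was close in all 3 libraries, at 340, 324 and 297 CPM. Id3 stood at 65.6, 35.9 and 47.9 CPM.

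Of the foreign RNA in CD90.2-dominant cells, the macrophage and neutrophil lists were lowest in mock and the B cell list highest. The macrophage list came to 82.4, 61.3 and 4.69 CPM in AAV-sgBaat, AAV-sgSCR and mock and the neutrophil genes to 151, 360 and 2.50 CPM. The B cell list came to 123, 95.5 and 208 CPM and the immature lymphocyte list to 11.4, 2.38 and 3.13 CPM. Their part in the members' ratios was not tested.

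Detection of pairs of members in the same cell was described over all 45 pairs, with each cell thinned to 2000 UMIs. The plainest pattern was in CD90.1-dominant cells with Tcf7. In AAV-sgSCR about as many of these as of the rest had Tox, while in AAV-sgBaat fewer of them had Tox and more had Lef1. In AAV-sgBaat, 17.4% of the 23 cells with Tcf7 had Tox (4.95% to 38.8%), against 53.5% of the 159 without (45.4% to 61.4%). In AAV-sgSCR the shares were 56.8% of 44 and 57.8% of 841. Pdcd1 followed Tox, at 8.70% against 37.1% in AAV-sgBaat and 47.7% against 38.5% in AAV-sgSCR. Lef1 was found in 47.8% of the cells with Tcf7 against 3.14% of those without in AAV-sgBaat, and in 4.55% against 1.07% in AAV-sgSCR. Id3 went with Tcf7 in both libraries, at 30.4% against 3.77% in AAV-sgBaat and 18.2% against 2.02% in AAV-sgSCR. Nr4a2 was the rarer in cells with Tcf7 in both, at 8.70% against 36.5% and 11.4% against 31.9%.

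**Figure D4:**
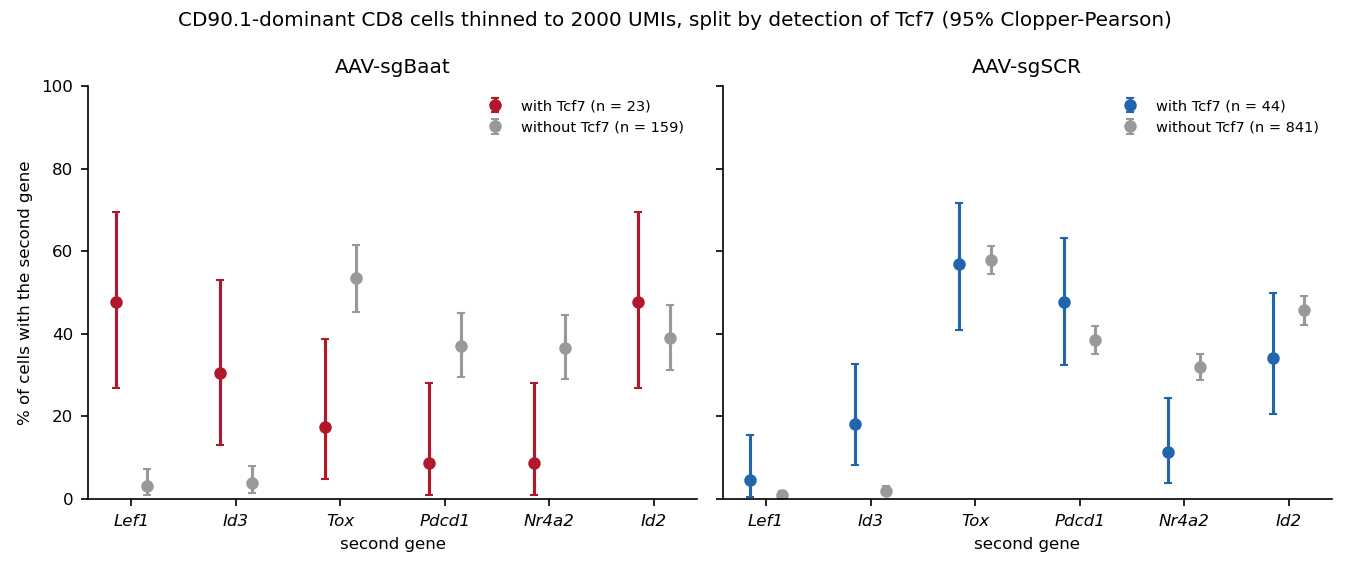
Share of CD90.1-dominant CD8 cells with a UMI of Lef1, Id3, Tox, Pdcd1, Nr4a2 or Id2 among cells with Tcf7 (23 in AAV-sgBaat, 44 in AAV-sgSCR) and without it (159 and 841), each cell thinned to 2000 gene UMIs, with exact 95% binomial intervals. Tox and Pdcd1 bars of cells with Tcf7 are low in AAV-sgBaat and level with the others in AAV-sgSCR, and Lef1 is high in AAV-sgBaat alone of the 2 libraries.

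These shares rest on few cells. Another random draw of 2000 UMIs per cell gave 15 cells with Tcf7 in AAV-sgBaat, of which 13.3% had Tox and 66.7% Lef1, and 45 in AAV-sgSCR, of which 55.6% had Tox and 4.44% Lef1. Without thinning, 45.9% of the 37 cells with Tcf7 in AAV-sgBaat had Tox, against 75.1% of those without, and in AAV-sgSCR 86.2% of 94 had it, against 83.5%. Summed over thinned counts, cells with Tcf7 in AAV-sgSCR had 102 CPM of Id3 against 11.3 CPM in those without, 443 against 295 CPM of Pdcd1, 500 against 477 CPM of Tox and 68.2 against 232 CPM of Nr4a2. TCF-1 together with TOX, PD-1 and ID3 is how progenitor exhausted cells are usually described. Of the thinned cells with Tcf7, 25 of the 44 in AAV-sgSCR and 4 of the 23 in AAV-sgBaat had Tox. In AAV-sgSCR Tox was about as frequent in cells without Tcf7, as given above. Cells with all of these genes at once were not counted.

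The cells with Tcf7 were of different make-up in the AAV libraries. In AAV-sgBaat 12 of the 23 held Dntt or Arpp21 or lacked Ccl5, and 9 of these 12 had Lef1 and 1 had Tox. Of the 11 others 2 had Lef1 and 3 had Tox, which is 27.3% (6.02% to 60.97%), against 54.8% of the 146 such cells without Tcf7. Within this subset, chosen after the data were seen, the AAV-sgBaat intervals for Tox with and without Tcf7 (46.4% to 63.0%) overlap, and 4 of the 11 had Id3, against 3.42% of the 146. In AAV-sgSCR, 18 of the 44 held Dntt or Arpp21 or lacked Ccl5, and 10 of these had Tox, 12 had Pdcd1 and 1 had Lef1. Of the 26 others 15 had Tox, 9 had Pdcd1 and 4 had Id3. Tox was thus found in 55.6% and 57.7% of the cells with Tcf7 in the 2 subsets of AAV-sgSCR, against 56.3% and 58.0% of those without. Pdcd1 was found in 66.7% and 34.6% of the cells with Tcf7, against 51.5% and 36.7% of those without.

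In CD90.2-dominant cells Tcf7 was found more often with Lef1 and less often with Id2. Lef1 was found in 36.6%, 31.5% and 54.2% of cells with Tcf7 in AAV-sgBaat, AAV-sgSCR and mock, against 19.4%, 18.0% and 38.8% of those without. Id2 was found in 22.6%, 26.0% and 21.3% of cells with Tcf7 against 39.3%, 46.8% and 34.1% of those without. Both T-box genes were found more often in cells with Id2. In mock, Eomes was found in 17.8% of cells with Id2 against 4.64% of those without, and Tbx21 in 11.9% against 2.03%. Tbx21 was found in 0 of 221 mock cells with Lef1, which allows a share of up to 1.66%, against 8.88% of those without. In AAV-sgSCR, cells with Tox had Pdcd1 in 20.8% against 3.74%, Nr4a2 in 16.9% against 4.78% and Id2 in 58.4% against 38.7% of cells without Tox.

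Outside CD8 cells, Eomes differed between the innate lymphocyte gates and Tbx21 did not pass 2-fold. Eomes marks circulating NK cells and T-bet is shared with type 1 innate lymphoid cells (ILC1) of the liver. Cells without CD3 RNA and with at least 2 UMIs of Ncr1 and Klrb1c were split by RNA of the Klra receptors into Klra-positive NK cells (72, 92 and 379 in AAV-sgBaat, AAV-sgSCR and mock) and Klra-negative ILC1-like cells (88, 122 and 102). Eomes stood at 172, 180 and 374 CPM in NK cells against 30.9, 18.2 and 55.2 CPM in ILC1-like cells, or 5.56-fold, 9.88-fold and 6.76-fold higher. Tbx21 stood at 159, 97.6 and 151 CPM against 124, 86.2 and 130 CPM, within 1.28-fold. Id2, which innate lymphoid cells need, stood at 714, 813 and 883 CPM against 892, 950 and 1162 CPM. Tox was the lower in NK cells, at 57.3, 57.5 and 42.3 CPM against 102, 92.8 and 88.8 CPM, and no UMI of Tox2 was counted in either gate.

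Between libraries, Nr4a2 in NK cells was far lower in the AAV groups than in mock. It stood at 83.7 CPM in AAV-sgBaat and 60.0 CPM in AAV-sgSCR, against 357 CPM in mock (4.27-fold and 5.95-fold lower, log2 ratios -2.09, -2.84 to -1.44, and -2.57, -3.23 to -1.98). In ILC1-like cells it stood at 43.2 and 26.5 CPM against 105 CPM. Eomes in NK cells was 2.17-fold and 2.07-fold lower than in mock. Nr4a2 was thus lower in both AAV groups than in mock in CD90.2-dominant CD8 cells with Ccl5, in NK cells and in ILC1-like cells. The direction was the same in CD4 T cells (8.08 and 7.65 against 26.0 CPM) and gamma-delta T cells (69.8 and 31.6 against 119 CPM). In both, the AAV-sgBaat interval includes 0. Other T cells without CD4 and CD8 RNA had 24.8 and 24.3 against 37.0 CPM. The lower level was therefore not particular to cytotoxic or innate cells.

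**Figure D5:**
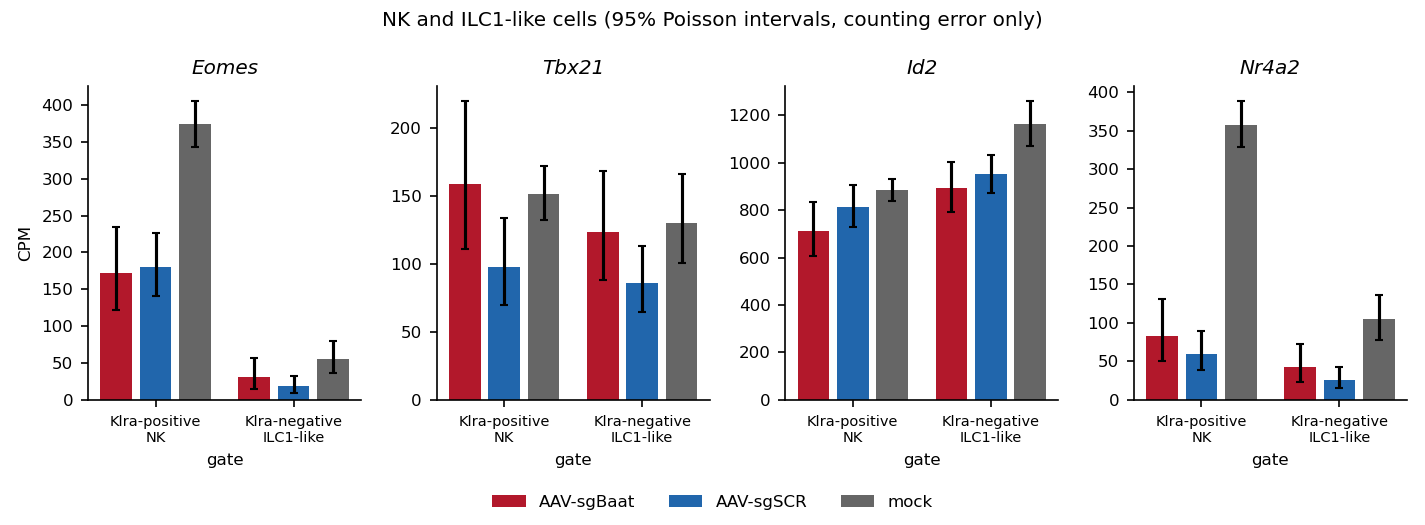
CPM of Eomes, Tbx21, Id2 and Nr4a2 in Klra-positive NK and Klra-negative ILC1-like cells of the AAV-sgBaat, AAV-sgSCR and mock libraries, with exact 95% Poisson intervals. Eomes is higher in NK cells in each library, Tbx21 is within 1.28-fold between the gates, and Nr4a2 is highest in mock NK cells at 357 CPM.

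CD4 T cells (74, 135 and 401 in AAV-sgBaat, AAV-sgSCR and mock) held almost no Eomes, with no UMI in AAV-sgBaat (up to 14.9 CPM) and 4.59 and 4.69 CPM in the others, and much Id2, at 545, 531 and 458 CPM. Their Tcf7 level, 226, 242 and 435 CPM, and their Lef1 level, 170, 184 and 428 CPM, were highest in mock, as in CD90.2-dominant CD8 cells. Id3 had 3 UMIs in AAV-sgBaat cells, against 40 in AAV-sgSCR cells (log2 ratio -2.34, -4.67 to -0.69). Gamma-delta T cells (43, 65 and 71) had 559, 531 and 644 CPM of Id2 and 140, 101 and 218 CPM of Tcf7. The other T cells without CD4 and CD8 RNA (475, 359 and 720) had 91.3, 30.0 and 12.1 CPM of Id3 and 280, 123 and 252 CPM of Tcf7. In AAV-sgBaat 96 of these 475 cells held a UMI of Dntt or Arpp21, against 7 and 5 in AAV-sgSCR and mock, and its part in the Id3 and Tcf7 levels was not tested. Bach2 and Id3 were also high in mature B cells, at 130, 108 and 203 CPM of Bach2 and 95.1, 79.0 and 75.8 CPM of Id3.

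Across the 17 combinations of gate and library with at least 100 cells, each member was set beside the 7818 genes that reached 20 CPM, by the Pearson correlation of log2(CPM + 1). The points share libraries and free RNA, so the values describe these sums and carry no p. Mature B cells of AAV-sgSCR (149) and mock (1329) are among the points. The correlations thus also take in the contrast of T and NK cells with B cells, and were not computed without it. Tcf7 was most like Lat (0.92), Thy1 (0.90) and Bcl11b (0.90), all genes of T cells. Lef1 was most like Tcf7 (0.89), Tox most like Zap70 (0.93), Eomes most like Zyx (0.92) and Nr4a2 most like Nab1 (0.91). Tbx21 was most like Ifng (0.97), the gene for interferon gamma. Id2 was most like Ppm1j (0.96), Id3 most like Bri3bp (0.89) and Bach2 most like 4930523C07Rik (0.95). Among pairs of members Tcf7 and Lef1 stood at 0.89, Id2 and Tbx21 at 0.83 and Id2 and Id3 at -0.67. Tox2 stayed below the minimum.

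Promoter sequences from RefSeq (GRCm38.p6) were at hand for 9 of the 10 genes, in 17 entries, and the 250 bases before each start were searched on both strands for short binding motifs of the member families. Of the 4 motifs, 2 were found at members, and these promoters are shown because Tcf7 and Tox2 differed between the CD90 classes. The motif of TCF-1 and LEF-1 (CTTTGAT or CTTTGAA, found in 7.48% of 32851 promoters) occurred at 1 Tox2 start, in 2 entries that overlap. The NR4A motif (AAAGGTCA, in 1.34%) occurred at Tcf7. The T-box motif (AGGTGTGA, in 1.12%) and the BACH2 motif (TGACTCAGC, in 0.390%) were not found in these windows. Capitals mark the match, which in both reads on the other strand. A match says only that these letters are there. Both windows shown lie within the gene spans given above, as do all entries of Tcf7 and Bach2. The bases before the outermost start of Tcf7 and of Bach2 were thus not searched.
Tcf7, chr11:52282596-52282845, minus strand: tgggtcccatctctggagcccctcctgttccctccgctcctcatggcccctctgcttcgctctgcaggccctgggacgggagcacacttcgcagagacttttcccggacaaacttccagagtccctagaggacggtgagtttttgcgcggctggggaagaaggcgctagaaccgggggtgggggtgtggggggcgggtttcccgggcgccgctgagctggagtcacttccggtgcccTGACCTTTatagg
Tox2, chr2:163225203-163225452, plus strand: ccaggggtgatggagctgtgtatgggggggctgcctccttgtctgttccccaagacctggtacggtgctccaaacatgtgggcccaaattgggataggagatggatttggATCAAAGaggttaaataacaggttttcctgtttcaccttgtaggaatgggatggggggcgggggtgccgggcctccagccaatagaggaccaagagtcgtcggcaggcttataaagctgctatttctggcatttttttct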

How the data were processed

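Single-cell RNA and antibody tags were measured in 3 mRNA libraries, 1 per group, and the tags were read from the same matrices (the 3 antibody samples are not held apart). The deposited values are raw UMI counts per feature and barcode, made with Cell Ranger 6.0.1 per the file headers, on mm10 per the submitters' processing notes. The labels name Hashtag 2 where the matrices hold F4/80, which was not used, and a kit version whose fit with antibody capture is uncertain. Each library gave 32005400 to 62570529 gene UMIs.

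The 10 genes, the lists, the gates and the named genes (all members, and the 3 highest and 3 lowest ratios of each list) were chosen with earlier results of these data known. Gates were set on UMIs, not clusters. CD8 cells had at least 2 UMIs over the CD3 genes and 2 over Cd8a and Cd8b1, none of Cd4 or Foxp3, and were not immature or gamma-delta. Barcodes positive for another lineage panel (such as at least 3 UMIs of B cell genes, 4 of macrophage genes or 10 of S100a8 and S100a9) were left out, which was the main treatment of doublets. Scrublet called 1, 1 and 258 barcodes in AAV-sgBaat, AAV-sgSCR and mock, so it had not worked in the AAV libraries, and leaving out the 403, 430 and 295 highest scores was an alternative. A naive-like gate is not reported here. The first neutrophil gate held few cells, and the wider one used for background was set after seeing the data.

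UMIs were summed per gate and library and scaled to CPM. Levels have exact Poisson, shares exact Clopper-Pearson and ratios exact conditional binomial 95% intervals. With 1 library per group no test was run, and PCR and sampling beyond counting are not covered. A sum of 0 stands at 3 counts in ratios. Thinning drew 2000 UMIs per cell with seed 0. The calculation was tested on simulated sums with Poisson error alone, which is the error the intervals assume. That test does not cover UMIs gathered in few cells. Alternatives changed the doublet rule, the tag, CD8, mitochondrial, depth and cycling limits, the scale and the subset of cells. Python 3.11.15, numpy 2.4.6, scipy 1.17.1, pandas 2.3.3, scanpy 1.11.5 and matplotlib 3.10.9 were used.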

Additional observations from a re-analysis of the deposited data

How the results depend on the processing

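In all, 900 member ratios were recomputed under 13 planned and 2 added alternatives (chosen after seeing the data). Of these, 792 moved by less than their counting interval, 107 moved further and 1 reversed. Only ratios of at least 2-fold could count as reversed, and changes of sign in smaller ratios were not counted. The ratio counted as reversed was Tox2 in CD90.2-dominant cells of AAV-sgBaat over mock. It stood at 0.27 on the log2 scale after thinning to 2000 UMIs, on very few counts, against -2.49. No Tox2 UMI of AAV-sgBaat was left in that draw, and a sum of 0 stands at 3 counts. The change of sign thus came from this floor and shows no higher level in AAV-sgBaat. The number of members past 2-fold in CD90.2-dominant cells of AAV-sgBaat over AAV-sgSCR was 1, namely Tox2 on 2 and 19 UMIs, with Tox just short of the threshold. It was 2 (Tox and Tox2) without the highest Scrublet scores, 2 with at least 50 tag UMIs, 2 with at least 200, 2 without mitochondrial and ribosomal genes in the total and 2 by the mean of single-cell CPM. It was 0 where the dominant tag had to be at least 3 times the other: Tox2, at -2.94 on the log2 scale, then had fewer than 20 UMIs and was not compared, and Tox stood at -0.88. In CD90.1-dominant cells of AAV-sgBaat over AAV-sgSCR the count stayed at 3 or 4, against 4, and it was 3 with mixed-lineage barcodes kept, with 1 CD8 UMI or without cycling cells. No paired analysis was possible because each group is 1 library and the labels give no replicate numbers. Depth limits Tox2, Eomes and Bach2 in CD90.1-dominant cells of AAV-sgBaat, which rest on 14, 5 and 5 UMIs, and every co-detection among its 23 cells with Tcf7.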
